A study of Mus musculus with 15 samples.

Results

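The genes described here carry amino acids into the cell or belong to the ATF4 response: Slc7a5, Slc7a6, Slc7a11, Slc3a2, Atf4, Ddit3, Trib3, Asns, Psat1 and Mthfd2. They were taken by symbol from the deposited matrix, keeping probe sets annotated to 1 of these symbols alone. Where a gene had several, the probe set was chosen by its mean log2 value over all 15 arrays, highest first, but each of the 10 genes had 1. They are 10 of 19933 genes tested, and their symbols were picked with earlier results of these data known. Their means over the 15 arrays ran from 6.01 for Slc7a11 to 12.72 for Asns on the log2 scale.

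The arrays measured total RNA from mouse G1E cells. These immature erythroid cells have no GATA1 of their own, a zinc finger transcription factor without which red cell precursors do not mature. Every line expressed, ectopically, GATA1 fused to an estrogen receptor domain (ER), and every culture had been induced with 100 nM estradiol for 24 hours. In 4 lines this GATA1-ER carried a mutation, called here R216Q, R216W, D218G and D218Y, and in the other line it was wild type (WT). Each line had 3 biological replicates, and the study compared mutant with wild type. The names give the amino acid change, at residues of the amino-terminal zinc finger. The sources used here do not say how many clones or pools stand behind a line, so line and mutation cannot be told apart. Uninduced cells were not analysed here.

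ATF4 is a basic leucine zipper factor whose translation increases when a kinase phosphorylates the initiation factor eIF2, for example when amino acids or haem run short. It binds C/EBP-ATF response elements and turns on amino acid transporters, amino acid synthesis enzymes and tRNA synthetases. In red cell precursors the haem-regulated kinase encoded by Eif2ak1 is the main eIF2 kinase. Much of the control of ATF4 is thus at the level of protein, which these arrays did not measure.

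Values are log2 values made by RMA, which puts arrays on a common scale, and a difference of 1 is a 2-fold change. They ran from 2.89 to 13.58, and the median gene averaged 6.48. Of 7 erythroid markers 6 were measured, and their mean per array lay between 11.67 and 11.68 in R216Q, 11.87 and 11.88 in R216W, 11.69 and 11.69 in D218G, 10.25 and 10.32 in D218Y, and 12.02 and 12.03 in WT. Of the 6 markers, 5 were lower than in WT in R216Q, 3 in R216W, 4 in D218G and 6 in D218Y, Gata1 among them, where 9.65%, 7.23%, 7.77% and 24.2% of all genes tested were lower. Their median difference from WT was -0.26 in R216Q, -0.12 in R216W, -0.17 in D218G and -0.54 in D218Y. In D218Y single markers ran from -5.60 to -0.28, so the drop in the mean was not shared evenly. Of 8 mast cell markers 4 were higher and 1 was lower in D218Y than in WT, beside 20.3% and 24.2% of all genes tested. Among the higher ones were Tpsab1, at 8.36 in D218Y and 5.30 in WT, and Ms4a2, at 6.56 in D218Y and 4.10 in WT. Fcer1a averaged 4.06 in both. Hdc was also higher in R216Q (0.35 ± 0.06 above WT on the log2 scale). The mean of the mast cell list was 5.89 to 5.97 in D218Y arrays, against 5.04 to 5.09 in WT arrays, and the part of any marker list in the results was not tested. Of 5 megakaryocyte markers measured, Gp9 was lower than in WT in every mutant (-1.61 in R216Q, -0.53 in R216W, -1.05 in D218G and -1.93 in D218Y) and Itga2b in D218Y (-0.38). Megakaryocyte markers called were 20% in R216Q, R216W and D218G and 40% in D218Y. The shares of all genes were 21.5%, 16.6%, 18.1% and 44.4% in that order of mutants. Of 7 stroma markers Col3a1 was lower in D218Y (-0.26), which is 14.3% called. The granulocyte and monocyte list and the lymphoid list had no marker that passed the test against WT in any mutant. Each array measured a whole culture, so a change in the share of a cell type and a change in RNA per cell cannot be told apart. The array medians were 6.37, 6.4 and 6.25 in D218G and 6.24 to 6.29 in D218Y, against 6.31 to 6.41 in WT.

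Promoter windows of RefSeq (GRCm38.p6, 250 bases before to 50 after the annotated start) were matched by symbol for 9 of the 10 genes, and Slc7a5 was not matched. They were searched on both strands for TGATGNAA, the core of the C/EBP-ATF response element, where N is any base. The motif was in the windows of Slc7a11, Asns and Trib3, 3 of 9 genes, and in those of 4.51% of all 27025 genes with a window. The stretches that hold it are shown because ATF4 binds such elements, with the match in capitals, read 5′ to 3′ on the strand of the gene.
Slc7a11: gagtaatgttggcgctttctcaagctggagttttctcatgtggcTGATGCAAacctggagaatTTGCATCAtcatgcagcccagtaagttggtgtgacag
Asns: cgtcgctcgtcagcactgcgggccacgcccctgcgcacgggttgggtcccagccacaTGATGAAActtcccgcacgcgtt
Trib3: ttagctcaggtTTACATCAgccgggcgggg
The Slc7a11 stretch is chr3:50443624-50443723 on the minus strand and holds 2 matches, at -66 to -59 on the gene's strand and at -47 to -40 on the opposite strand. The Asns stretch is chr6:7693210-7693289 on the minus strand, with its match at -23 to -16 from the start. The Trib3 stretch is chr2:152344028-152344057 on the minus strand, and its match lies after the start, at 15 to 22, on the opposite strand. A match is a run of letters and not a site shown to be bound.

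Motifs that GATA factors bind were searched on both strands as the letters AGATAA or else AGATAG, and with the first letter changed as TGATAA or else TGATAG. They were in the windows of 4 of the 9 genes and in those of 33% of all genes with a window. The motif of Atf4 was TGATAA at -39 to -34, that of Psat1 AGATAG at -137 to -132, that of Ddit3 AGATAA at 7 to 12 and that of Slc7a11 TGATAG at 42 to 47. None of the 9 genes held the E-box CACGTG, which was in the windows of 8.09% of genes. The upstream stretches with a GATA match are shown because the lines differ in the GATA1 protein.
Atf4: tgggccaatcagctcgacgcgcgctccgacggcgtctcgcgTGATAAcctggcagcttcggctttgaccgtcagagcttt
Psat1: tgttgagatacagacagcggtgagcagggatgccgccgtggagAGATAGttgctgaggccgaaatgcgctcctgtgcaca
They are chr15:80255104-80255183 on the plus strand and chr19:15924723-15924802 on the minus strand.

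The arrays of every line are drawn in the plot of the 10 genes by line. Under limma's F test over the 5 lines, 9 of the 10 genes passed, as did 41.9% of all genes tested. Their largest adjusted p was 5.28e-06, for Slc7a11, and Asns did not pass (adjusted p = 0.158). Line means spanned 9.85-fold for Slc7a6, 2.68-fold for Slc7a5 and 2.15-fold for Ddit3. The other spans lay between 1.36-fold for Slc3a2 and 1.93-fold for Slc7a11, apart from that of Asns (1.06-fold).

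**Figure D1:**
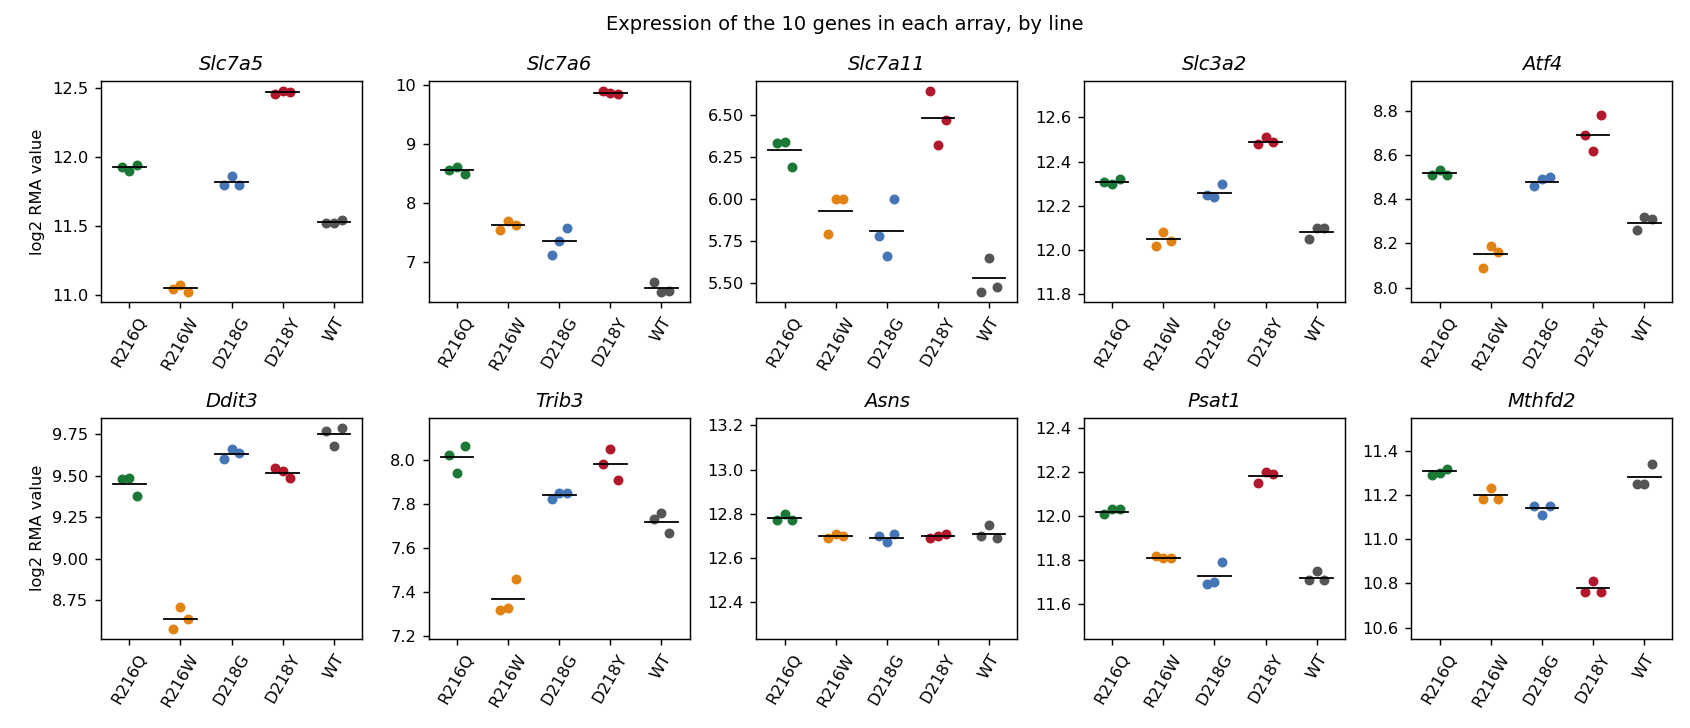
Log2 RMA values of the 10 genes (vertical axis, each panel on its own range) in 3 arrays of each line (points) with the line mean (bar). Slc7a6 runs from 6.56 in WT to 9.86 in D218Y, Ddit3 is lowest in R216W (8.64), and the Asns means stay between 12.69 and 12.78.

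Slc7a6 encodes a light chain that exchanges cationic for neutral amino acids across the plasma membrane. Its values were 8.56, 8.61 and 8.49 in R216Q, 7.55, 7.69 and 7.62 in R216W, 7.13, 7.36 and 7.57 in D218G, 9.89, 9.85 and 9.84 in D218Y, and 6.67, 6.50 and 6.52 in WT. All arrays of every mutant line lay above all WT arrays, D218Y arrays were highest, and the arrays of D218G and R216W overlapped. Slc7a6 rose in every mutant, by 1.99 ± 0.08 in R216Q, 1.06 ± 0.08 in R216W, 0.79 ± 0.08 in D218G and 3.30 ± 0.08 in D218Y (log2 difference from WT ± SE, n = 3 per line), with limma's adjusted p between 3.42e-13 and 9.64e-06. The D218Y array level was thus 9.85 times that of WT, whose values lay near the median gene, where RMA compresses differences. From low to high the order was WT, D218G, R216W, R216Q and D218Y, and every step passed, although the step between D218G and R216W (0.27, limma adjusted p = 0.0341) was lost when replicate 2 or 3 of R216W or replicate 1 or 2 of D218G was left out (adjusted p from 0.0721 to 0.165) and with the replicate number as a block (adjusted p = 0.0562). Without replicate 1 of D218G that step was 0.16. D218G had the widest spread of this gene (SD 0.22, n = 3).

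Slc7a5 encodes the light chain that imports large neutral amino acids such as leucine. The arrays read 11.93, 11.90 and 11.94 in R216Q, 11.04, 11.07 and 11.02 in R216W, 11.80, 11.86 and 11.80 in D218G, 12.46, 12.48 and 12.47 in D218Y, and 11.52, 11.52 and 11.54 in WT. No pair of lines overlapped, and R216W was below WT while the other mutants were above it. It rose by 0.40 ± 0.03 in R216Q (adjusted p = 3.5e-07), by 0.30 ± 0.03 in D218G (adjusted p = 1.14e-05) and by 0.94 ± 0.03 in D218Y (adjusted p = 6.38e-12), and fell in R216W (-0.48 ± 0.03, adjusted p = 7.67e-08). These are changes of -28.3% in R216W and 92.5% in D218Y. In the order R216W, WT, D218G, R216Q and D218Y each step passed, but the step between D218G and R216Q was small (0.11, adjusted p = 0.0445) and was lost when any replicate of R216Q or replicate 1 or 3 of D218G was left out (adjusted p from 0.0637 to 0.147). It was also lost with quantile or cyclic loess normalization (adjusted p = 0.0583 and 0.072) and with the replicate block (adjusted p = 0.0795).

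Slc3a2 encodes the heavy chain that pairs with each of these light chains and brings them to the membrane. Its values were 12.31, 12.30 and 12.32 in R216Q, 12.02, 12.08 and 12.04 in R216W, 12.25, 12.24 and 12.30 in D218G, 12.48, 12.51 and 12.49 in D218Y, and 12.05, 12.10 and 12.10 in WT. R216W and WT overlapped, and the other 3 lines lay above both. Slc3a2 rose by 0.23 ± 0.03 in R216Q (adjusted p = 0.0001), by 0.18 ± 0.03 in D218G (adjusted p = 0.00113) and by 0.41 ± 0.03 in D218Y (adjusted p = 7.02e-08). In R216W it was at -0.03 (95% interval -0.11 to 0.04, adjusted p = 0.615).

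Slc7a11 encodes the light chain of the cystine and glutamate exchanger, which feeds glutathione synthesis. Its arrays read 6.33, 6.34 and 6.19 in R216Q, 5.79, 6.00 and 6.00 in R216W, 5.78, 5.66 and 6.00 in D218G, 6.64, 6.32 and 6.47 in D218Y, and 5.45, 5.65 and 5.48 in WT. These were the lowest levels of the 10 genes, near or below the median gene, where RMA compresses differences. Every mutant array lay above every WT array. Slc7a11 rose by 0.76 ± 0.10 in R216Q (adjusted p = 3.15e-05), 0.40 ± 0.10 in R216W (adjusted p = 0.00848) and 0.95 ± 0.10 in D218Y (adjusted p = 9.31e-07). In D218G it was at 0.28 ± 0.10 (adjusted p = 0.0549), and it passed there when replicate 2 of WT (adjusted p = 0.0359) or replicate 2 of D218G (adjusted p = 0.0234) was left out. Of the steps in the order WT, D218G, R216W, R216Q and D218Y, the one between R216W and R216Q alone passed (0.36, adjusted p = 0.0172), and it was lost with quantile normalization (adjusted p = 0.0591), with cyclic loess (adjusted p = 0.0808) and when replicate 1 or 2 of R216Q or replicate 1 of R216W was left out (adjusted p from 0.0653 to 0.0944).

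Atf4 transcript spanned 1.46-fold over the lines, less than Slc7a5, Slc7a6 and Slc7a11 did and more than Slc3a2. It read 8.51, 8.53 and 8.51 in R216Q, 8.09, 8.19 and 8.16 in R216W, 8.46, 8.49 and 8.50 in D218G, 8.69, 8.62 and 8.78 in D218Y, and 8.26, 8.32 and 8.31 in WT. R216W arrays were the lowest and D218Y arrays the highest, with no overlap between any mutant and WT. Atf4 rose by 0.22 ± 0.04 in R216Q (adjusted p = 0.0011), by 0.19 ± 0.04 in D218G (adjusted p = 0.00478) and by 0.40 ± 0.04 in D218Y (adjusted p = 1.57e-06). In R216W it fell by 0.15 ± 0.04 (adjusted p = 0.0246). That call was lost without replicate 2 or 3 of WT, without replicate 1 or 3 of R216W (adjusted p from 0.0571 to 0.116) and when these 6 arrays alone were fitted (adjusted p = 0.0588). R216Q and D218G stood 0.03 apart (adjusted p = 0.78).

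Ddit3 encodes CHOP, a leucine zipper factor that ATF4 induces and that is linked to cell death under prolonged stress. Its values were 9.48, 9.49 and 9.38 in R216Q, 8.58, 8.71 and 8.64 in R216W, 9.60, 9.66 and 9.64 in D218G, 9.55, 9.53 and 9.49 in D218Y, and 9.77, 9.68 and 9.79 in WT. R216W stood apart, below all arrays of the other lines, and WT was the highest line. Ddit3 fell in R216W (-1.10 ± 0.05, a change of -53.4%, adjusted p = 5.39e-10), R216Q (-0.30 ± 0.05, adjusted p = 0.000188) and D218Y (-0.22 ± 0.05, adjusted p = 0.000964). In D218G it was at -0.12 ± 0.05 (adjusted p = 0.112), a value that passed when genes above the median intensity alone were tested (adjusted p = 0.0469). The steps from R216Q to D218Y, D218G and WT did not pass singly.

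Trib3 encodes a pseudokinase that ATF4 induces and that in turn restrains ATF4. It read 8.02, 7.94 and 8.06 in R216Q, 7.32, 7.33 and 7.46 in R216W, 7.82, 7.85 and 7.85 in D218G, 7.98, 8.05 and 7.91 in D218Y, and 7.73, 7.76 and 7.67 in WT. R216W was again the lowest line, R216Q and D218Y overlapped, and all arrays of R216Q, D218G and D218Y were above those of WT. Trib3 fell by 0.35 ± 0.05 in R216W (adjusted p = 0.000121) and rose by 0.29 ± 0.05 in R216Q (adjusted p = 0.00053) and by 0.26 ± 0.05 in D218Y (adjusted p = 0.000528). With quantile normalization the D218Y difference was 0.13 and did not pass (adjusted p = 0.0725). In D218G it was at 0.12 ± 0.05 (adjusted p = 0.143).

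The enzymes went separate ways. Asns, which makes asparagine and has a TGATGNAA match in its promoter window, read 12.77, 12.80 and 12.77 in R216Q, 12.69, 12.71 and 12.70 in R216W, 12.70, 12.67 and 12.71 in D218G, 12.69, 12.70 and 12.71 in D218Y, and 12.70, 12.75 and 12.69 in WT. All lines but R216Q overlapped, and the mean over all arrays stood at percentile 99.9 of the genes tested. Against WT the 95% interval was 0.00 to 0.14 in R216Q (adjusted p = 0.159), -0.08 to 0.06 in R216W, -0.08 to 0.05 in D218G and -0.08 to 0.06 in D218Y. The R216Q value passed with eBayes with trend and robust (adjusted p = 0.00568) and among genes above the median intensity (adjusted p = 0.0419). At this level RMA values lie near the top of the scale, where differences can also be understated.

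Psat1, an aminotransferase of serine synthesis, read 12.01, 12.03 and 12.03 in R216Q, 11.82, 11.81 and 11.81 in R216W, 11.69, 11.70 and 11.79 in D218G, 12.15, 12.20 and 12.19 in D218Y, and 11.71, 11.75 and 11.71 in WT. D218Y and R216Q lay above the other lines, while D218G and WT overlapped. Psat1 rose by 0.30 ± 0.03 in R216Q (adjusted p = 1.41e-05) and by 0.45 ± 0.03 in D218Y (adjusted p = 4.86e-08). It was at 0.09 ± 0.03 in R216W (adjusted p = 0.12, and 0.0125 with eBayes with trend and robust) and at 0.00 in D218G (95% interval -0.07 to 0.08).

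Mthfd2, a mitochondrial enzyme of folate one-carbon metabolism that ATF4 can induce, went the other way in D218Y. It read 11.29, 11.30 and 11.32 in R216Q, 11.18, 11.23 and 11.18 in R216W, 11.15, 11.11 and 11.15 in D218G, 10.76, 10.81 and 10.76 in D218Y, and 11.25, 11.25 and 11.34 in WT. D218Y arrays were below all other arrays, and R216Q overlapped WT. Mthfd2 fell in D218Y (-0.50 ± 0.04, a change of -29.5%, adjusted p = 1.71e-08) and in D218G (-0.14 ± 0.04, adjusted p = 0.0102). The D218G call was lost without replicate 3 of WT (adjusted p = 0.0508) and when these 6 arrays alone were fitted (adjusted p = 0.113). In R216Q it was at 0.03 (95% interval -0.05 to 0.10) and in R216W at -0.08 ± 0.04 (adjusted p = 0.154).

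Counted over the 10 genes, 7 rose and 1 fell in R216Q, where 21.5% of all genes tested were called, 11.8% higher and 9.65% lower. In R216W 2 rose and 4 fell, where 16.6% of all genes were called, 9.36% higher and 7.23% lower. In D218G 4 rose and 1 fell, where 18.1% of all genes were called, 10.3% higher and 7.77% lower. In D218Y 7 rose and 2 fell, where 44.4% of all genes were called, 20.3% higher and 24.2% lower. The median difference of the 10 genes was 0.26 in R216Q, -0.06 in R216W, 0.15 in D218G and 0.40 in D218Y, beside -0.01, -0.02, -0.02 and -0.07 over all genes. The 4 comparisons share the WT arrays. Without replicate 3 of D218G, whose array median was lowest in its line, 4 rose and 1 fell in D218G.

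**Figure D2:**
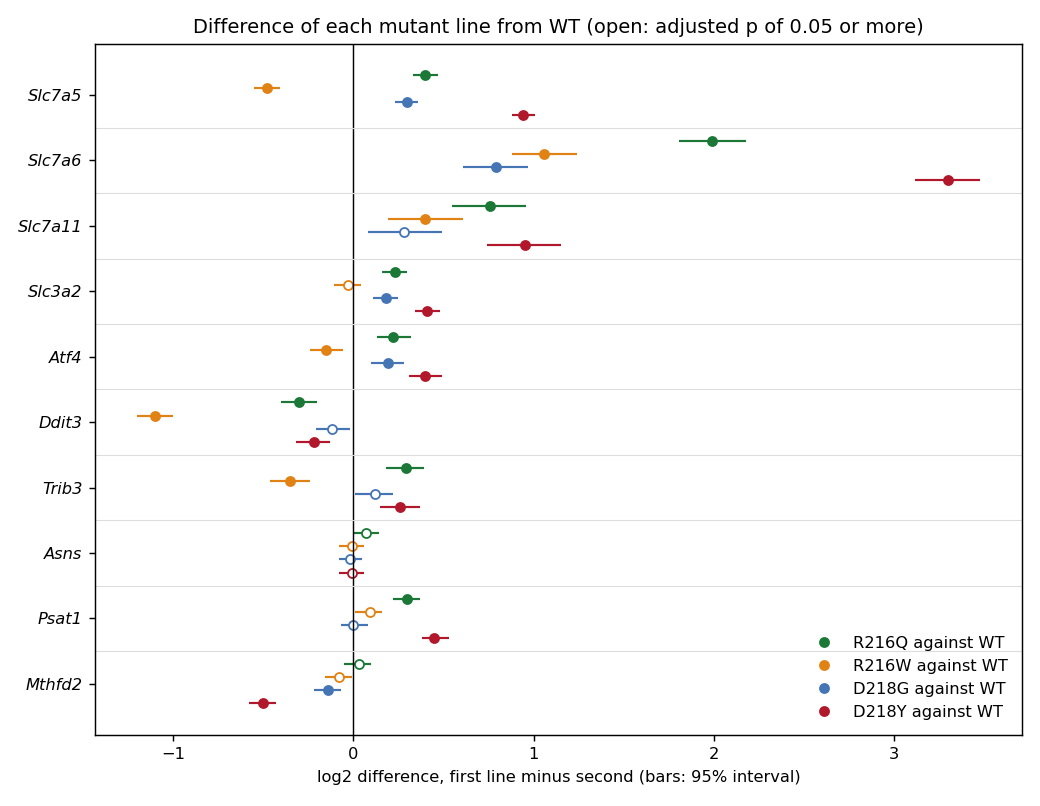
Log2 difference of each mutant line from WT (horizontal axis) for the 10 genes, with 95% intervals from the limma fit. Filled points passed at an adjusted p under 0.05. Slc7a5, Atf4, Ddit3 and Trib3 lie left of 0 in R216W, and Slc7a6 lies right of 0 in all mutants.

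The changes at one residue were also set against each other. In R216W 8 of the 10 genes were lower than in R216Q and none was higher, where 8.65% of all genes were lower and 8.25% higher (16.9% in either direction). The largest differences were in Slc7a6 (-0.93 ± 0.08, adjusted p = 1.57e-06), Slc7a5 (-0.88 ± 0.03, adjusted p = 1.75e-10), Ddit3 (-0.80 ± 0.05, adjusted p = 1.36e-08) and Trib3 (-0.64 ± 0.05, adjusted p = 3.48e-07). Atf4 itself was lower too (-0.37 ± 0.04, adjusted p = 1.47e-05). Asns (-0.08, 95% interval -0.15 to -0.01, adjusted p = 0.116) and Mthfd2 (-0.11, 95% interval -0.19 to -0.03, adjusted p = 0.0521) did not pass. Both passed with eBayes with trend and robust (adjusted p = 0.0024 and 0.00622) and among genes above the median intensity (adjusted p = 0.0267 and 0.0138). Mthfd2 also passed with quantile normalization (adjusted p = 0.0307) and without replicate 2 of R216W (adjusted p = 0.0483).

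In D218Y 7 of the 10 genes were higher and 1 lower than in D218G, where 17.4% of all genes were higher and 15.6% lower (33% in either direction). Slc7a6 differed by 2.51 ± 0.08 (adjusted p = 1.37e-11), Slc7a11 by 0.66 ± 0.10 (adjusted p = 5.86e-05), Slc7a5 by 0.65 ± 0.03 (adjusted p = 8.6e-10) and Psat1 by 0.45 ± 0.03 (adjusted p = 9.75e-08). Mthfd2 was the lower one (-0.36 ± 0.04, adjusted p = 1.25e-06). Ddit3 was at -0.11 ± 0.05 (adjusted p = 0.0856). With quantile normalization Ddit3 was lower (-0.17, adjusted p = 0.00767), Atf4 (0.12, adjusted p = 0.0585) and Trib3 (0.05, adjusted p = 0.576) did not pass, and the count was 5 higher and 2 lower. The Trib3 difference (0.14, adjusted p = 0.0371) was also lost without replicate 1 or 2 of D218Y or of D218G (adjusted p from 0.0733 to 0.149) and with the replicate block (adjusted p = 0.0619).

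**Figure D3:**
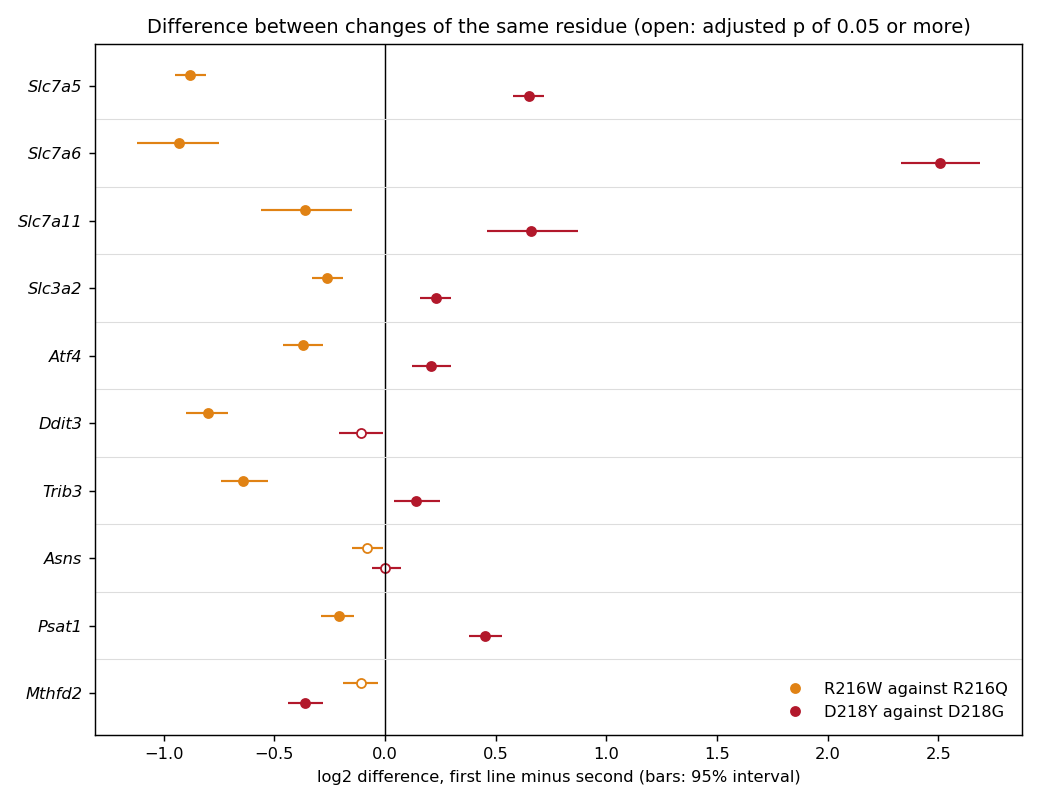
Log2 difference between the lines that carry changes of the same residue (horizontal axis), R216W minus R216Q and D218Y minus D218G, with 95% intervals. The 8 filled points of R216W lie left of 0, and 7 of the 8 filled points of D218Y lie right of it.

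Across residues, D218G and R216Q were the closest mutants in the transporter chain Slc3a2 (-0.05, adjusted p = 0.459) and in Atf4. In D218G 6 of the 10 genes were lower than in R216Q and 1, Ddit3, was higher (0.18, adjusted p = 0.0137), where 13.4% of all genes were called, 6.52% lower and 6.87% higher. The Ddit3 call was lost without replicate 3 of R216Q (adjusted p = 0.0731) or replicate 2 of D218G (adjusted p = 0.053), and a call on Trib3 (-0.17, adjusted p = 0.0333) when replicate 1 or 3 of R216Q or any replicate of D218G was left out (adjusted p from 0.0515 to 0.141). That Trib3 call was also lost with the replicate block (adjusted p = 0.064), with quantile normalization (adjusted p = 0.0578), with eBayes with trend and robust (adjusted p = 0.0567) and when these 6 arrays alone were fitted (adjusted p = 0.0807). Without replicate 3 of R216Q 4 genes were lower and 0 higher. With any single array of these lines left out, 4 to 6 genes were called, against 7 in all arrays. In D218G 5 of the 10 genes were higher and 1 lower than in R216W, where 22% of all genes were called, 11.3% higher and 10.7% lower. Ddit3 was at 0.99 ± 0.05 and Slc7a5 at 0.78 ± 0.03 in that comparison. In D218Y 8 were higher and 1 lower than in R216W, where 36.3% of all genes were called, 18.8% higher and 17.5% lower. Against R216Q, 5 were higher in D218Y and 1 lower, where 31.8% of all genes were called, 16.5% higher and 15.4% lower. Mthfd2 was the lower one in both (-0.42 ± 0.04 and -0.53 ± 0.04). Atf4 was 0.18 ± 0.04 higher in D218Y than in R216Q (adjusted p = 0.00504), a call lost with quantile normalization (0.08, adjusted p = 0.237).

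Line means were also compared as profiles, each centred on the gene's own mean over the 5 lines. Among the 10 genes the closest pair was Slc3a2 and Atf4, with a root mean square difference of 0.05 on the log2 scale over 5 lines, followed by Atf4 and Trib3 (0.09). Slc7a6 lay at least 0.80 from each of the others. Outside the 10 genes, placeholder symbols such as those ending in Rik, and small RNAs, were passed over. Of the rest, the profiles closest to Atf4 were those of Xpot, a tRNA exporter (0.023), Zfp451 (0.024), Eprs, the glutamyl-prolyl-tRNA synthetase (0.027), and Zmpste24, a protease that processes lamin A (0.031). Closest to Trib3 were Kri1 (0.037), Gde1 (0.069), Usp31 (0.070) and Aldh18a1, the first enzyme of proline synthesis (0.072). Closest to Slc7a11 were Slc2a1, a glucose transporter (0.051), Prkx (0.051), Ccdc43 (0.059) and Ppm1k (0.059). Such distances favour genes that span a like range and were not tested.

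Other ATF4 targets and enzymes of the same pathways were counted next, and the plot of the pathway lists shows each gene. Of 14 further ATF4 targets measured (15 listed), 7 rose in R216Q, 3 rose and 1 fell in R216W, 6 rose in D218G, and 8 rose and 3 fell in D218Y, with medians of 0.20, -0.05, 0.08 and 0.38. The shares called in R216Q, R216W, D218G and D218Y were 50%, 28.6%, 42.9% and 78.6%, against 21.5%, 16.6%, 18.1% and 44.4% of all genes tested. The 3 that fell in D218Y were at -0.23 to -0.18, and their WT means of 5.14 to 6.82 lay near or below the median gene. This count leaves out Ppp1r15a, an ATF4 target counted below with the eIF2 genes. It was at -1.22 ± 0.04 in D218Y, from a WT mean of 10.24. Sesn2, a leucine sensor of the mTORC1 pathway, rose in every mutant (0.81 ± 0.05 in R216Q, 0.52 ± 0.05 in R216W, 0.32 ± 0.05 in D218G and 0.71 ± 0.05 in D218Y). Ero1a, an oxidase of the endoplasmic reticulum, rose in R216Q (0.50 ± 0.05), D218G (0.32 ± 0.05) and D218Y (0.93 ± 0.05) and was at -0.04 ± 0.05 in R216W. Pck2, the mitochondrial phosphoenolpyruvate carboxykinase, rose in R216Q (0.38 ± 0.05), D218G (0.44 ± 0.05) and D218Y (0.57 ± 0.05) and fell in R216W (-0.15 ± 0.05, adjusted p = 0.0499). Cth, which makes cysteine from cystathionine, rose in D218Y alone among the mutants called (1.01 ± 0.10), from a dim level of 5.64 in WT.

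Of 18 cytosolic aminoacyl-tRNA synthetases measured (20 listed), 11 rose in R216Q, 10 in D218G and 14 in D218Y, and none fell there. In R216W 1 rose and 4 fell. These are shares called of 61.1%, 27.8%, 55.6% and 77.8% in R216Q, R216W, D218G and D218Y, beside 21.5%, 16.6%, 18.1% and 44.4% of all genes. Their median differences were 0.18 in R216Q, -0.05 in R216W, 0.15 in D218G and 0.33 in D218Y. The largest were in D218Y, at 0.55 ± 0.04 for Tars, 0.48 ± 0.04 for Gars, 0.42 ± 0.04 for Farsb and 0.41 ± 0.03 for Kars, the enzymes for threonine, glycine, phenylalanine and lysine. In R216W these 4 genes were between -0.01 and 0.08 and did not pass.

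Of 10 serine, glycine and folate enzymes measured, 4 rose in R216Q, 2 in R216W, 4 in D218G and 5 in D218Y, and 1 fell, in D218Y. The gene that fell was at -0.22, from a WT mean of 5.58, below the median gene. Shares called were 40%, 20%, 40% and 60% in the same order of mutants, and 21.5%, 16.6%, 18.1% and 44.4% over all genes. Mthfd1, a cytosolic folate enzyme, averaged 12.06 in D218Y, against 10.68 in WT, a rise of 1.38 ± 0.03 (adjusted p = 1.35e-13). Among its relatives Mthfd2 fell there, while Mthfd1l and Mthfd2l rose. Mthfd1 also rose in R216Q (0.62 ± 0.03) and D218G (0.68 ± 0.03). Shmt1, the cytosolic serine hydroxymethyltransferase, rose by 1.31 ± 0.05, Mthfd1l by 1.21 ± 0.04 and Mthfd2l by 1.03 ± 0.11 in D218Y, and Mthfd2l rose by 0.53 ± 0.11 in both R216Q and D218G. Shmt1 and Mthfd1l also rose in the other 3 mutants (0.38 to 0.72). Of 7 enzymes of proline, aspartate, glutamate and branched-chain amino acids, 3 rose and 2 fell in R216Q, 1 rose and 3 fell in R216W, 3 rose and 1 fell in D218G, and 4 rose and 3 fell in D218Y. That is 71.4%, 57.1%, 57.1% and 100% called, where all genes had 21.5%, 16.6%, 18.1% and 44.4%. Of the 3 that fell in D218Y, 1 was at -0.16 from a WT mean of 5.89, below the median gene. Got1, the cytosolic aspartate aminotransferase, rose in R216Q (0.24 ± 0.03) and D218Y (0.47 ± 0.03) and fell in R216W (-0.26 ± 0.03). Glul, glutamine synthetase, fell in R216Q (-0.26 ± 0.03) and D218Y (-0.69 ± 0.03). Glud1, glutamate dehydrogenase, rose in every mutant (0.24 in D218G to 0.80 in D218Y), and Bcat2, the mitochondrial branched-chain aminotransferase, fell in every mutant (-0.22 in R216W to -0.53 in R216Q).

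**Figure D4:**
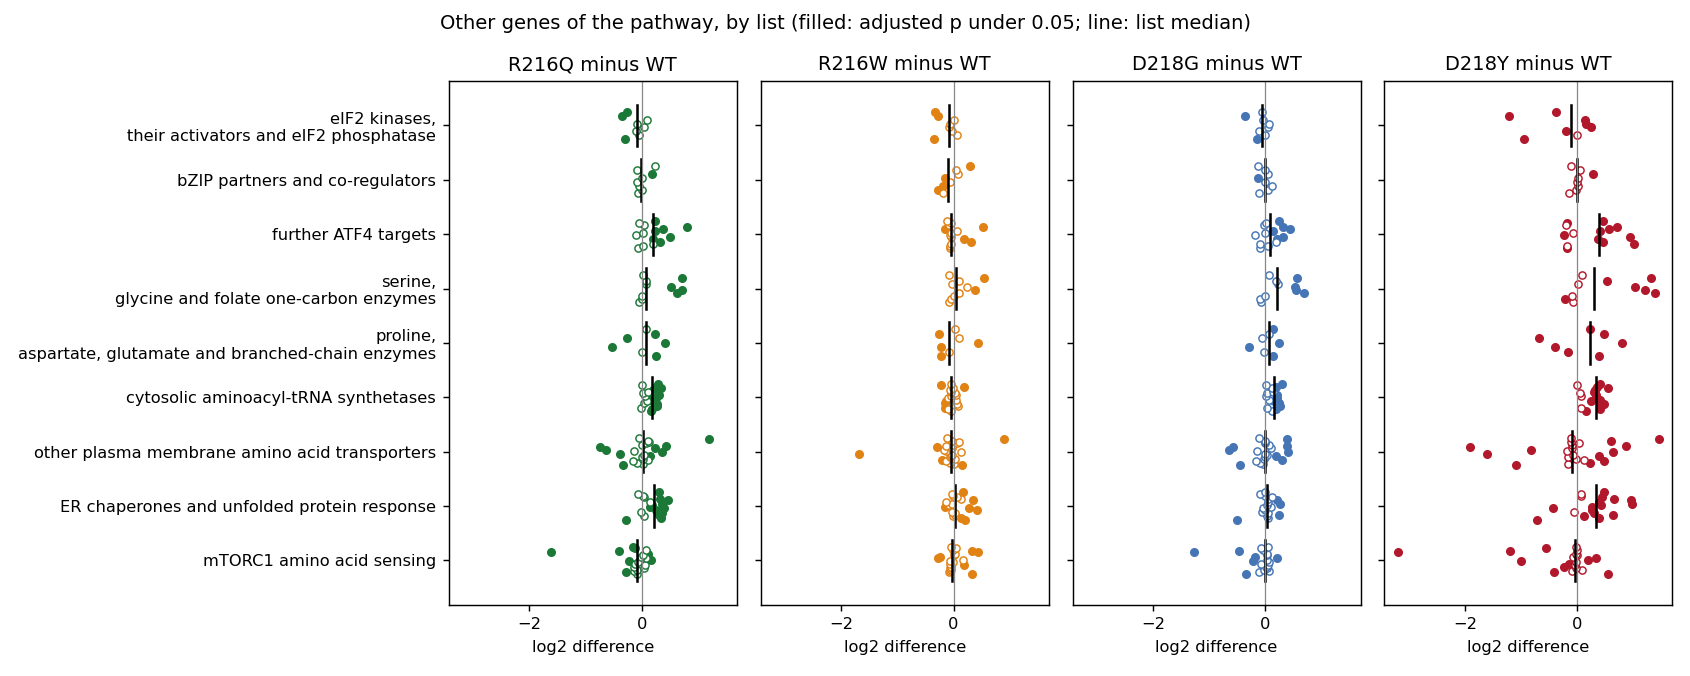
Log2 difference from WT (horizontal axis) of every measured gene of 9 pathway lists, 1 panel per mutant, with filled points for an adjusted p under 0.05 and a bar at the list median. The aminoacyl-tRNA synthetases lie mostly right of 0 in R216Q, D218G and D218Y, and Rragd is the leftmost point in D218Y (-3.20).

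Of 22 other plasma membrane amino acid transporters, 5 rose and 4 fell in R216Q, 2 rose and 3 fell in R216W, 5 rose and 3 fell in D218G, and 7 rose and 4 fell in D218Y. The called shares of 40.9%, 22.7%, 36.4% and 50% stand beside 21.5%, 16.6%, 18.1% and 44.4% of all genes. Slc7a8, a further neutral amino acid light chain that pairs with the Slc3a2 product, rose in every mutant (1.2 ± 0.04 in R216Q, 0.90 ± 0.04 in R216W, 0.39 ± 0.04 in D218G and 1.46 ± 0.04 in D218Y). Slc6a9, the glycine transporter that supplies haem synthesis, fell in every mutant (-1.91 ± 0.04 in D218Y and -0.30 ± 0.04 in R216W). Slc38a5, a glutamine transporter, fell in R216Q (-0.39 ± 0.05), R216W (-1.68 ± 0.05) and D218Y (-1.61 ± 0.05) and was at 0.00 in D218G (adjusted p = 0.98). Slc16a10, an aromatic amino acid transporter, fell in R216Q (-0.33 ± 0.04), D218G (-0.45 ± 0.04) and D218Y (-1.09 ± 0.04) and rose in R216W (0.15 ± 0.04).

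Of 8 genes for eIF2 kinases, their activators and the eIF2 phosphatase, 3 fell in R216Q, 3 in R216W and 2 in D218G, and 4 fell and 3 rose in D218Y. Among these genes 37.5%, 37.5%, 25% and 87.5% were called in R216Q, R216W, D218G and D218Y, and 21.5%, 16.6%, 18.1% and 44.4% among all genes. Eif2ak1 averaged 11.29 in R216Q, 11.23 in R216W, 11.43 in D218G, 10.63 in D218Y and 11.58 in WT, and fell in every mutant, with a difference of -0.95 ± 0.03 in D218Y (adjusted p = 6.12e-12) and -0.15 ± 0.03 in D218G. Ppp1r15a, the stress-induced subunit of the eIF2 phosphatase and itself an ATF4 target, fell in every mutant, with a difference of -1.22 ± 0.04 in D218Y (adjusted p = 5.98e-12) and of -0.37 to -0.28 in the others. Ppp1r15b, the constitutive subunit, fell in R216Q (-0.27 ± 0.04), R216W (-0.33 ± 0.04) and D218Y (-0.38 ± 0.04). Eif2ak4, the kinase that senses uncharged tRNA, rose in D218Y by 0.24 ± 0.06 (adjusted p = 0.0032).

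Of 8 leucine zipper partners and co-regulators, 1 rose in R216Q, 1 rose and 3 fell in R216W, 1 fell in D218G and 1 rose in D218Y. The shares were 12.5%, 50%, 12.5% and 12.5%, beside 21.5%, 16.6%, 18.1% and 44.4% of all genes. Atf5 (-0.27 ± 0.04) and Cebpb (-0.18 ± 0.05) were among those that fell in R216W, while Nupr1 rose there (0.30 ± 0.08, adjusted p = 0.0194). Nfe2l1 rose in R216Q (0.19 ± 0.06) and D218Y (0.28 ± 0.06). Of 18 genes of the endoplasmic reticulum stress response, 11 rose and 1 fell in R216Q, 6 rose and 1 fell in R216W, 3 rose and 1 fell in D218G, and 13 rose and 2 fell in D218Y. Called were 66.7%, 38.9%, 22.2% and 83.3% of them, and 21.5%, 16.6%, 18.1% and 44.4% of all genes. Hyou1, a chaperone, rose in R216Q (0.36 ± 0.05), D218G (0.26 ± 0.05) and D218Y (0.97 ± 0.05). Pdia4, a disulphide isomerase, rose in every mutant (0.20 in D218G to 0.96 in D218Y), and Pdia6 in R216Q (0.33 ± 0.07) and D218Y (0.65 ± 0.07). Atf6, a sensor of this response, fell in D218Y (-0.71 ± 0.04), D218G (-0.50 ± 0.04) and R216Q (-0.28 ± 0.04) and rose in R216W (0.20 ± 0.04).

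Of 20 genes of mTORC1 amino acid sensing, 2 rose and 6 fell in R216Q, 4 rose and 2 fell in R216W, 1 rose and 5 fell in D218G, and 3 rose and 7 fell in D218Y. This amounts to 40%, 30%, 30% and 50%, where 21.5%, 16.6%, 18.1% and 44.4% of all genes were called. Rragd, a Rag GTPase that recruits mTORC1 to lysosomes, averaged 8.04 in R216Q, 10.10 in R216W, 8.39 in D218G, 6.46 in D218Y and 9.66 in WT. It fell in D218Y (-3.20 ± 0.08, adjusted p = 1.91e-13), R216Q (-1.62 ± 0.08) and D218G (-1.27 ± 0.08) and rose in R216W (0.43 ± 0.08). Sesn1 had the same signs, at -1.2 ± 0.04 in D218Y, -0.40 ± 0.04 in R216Q, -0.47 ± 0.04 in D218G and 0.33 ± 0.04 in R216W. Nprl3, a subunit of the GATOR1 inhibitor of mTORC1 whose introns hold enhancers of the alpha-globin genes, fell in R216Q (-0.22 ± 0.04), D218G (-0.22 ± 0.04) and D218Y (-1.0 ± 0.04). Tsc1 fell in R216Q (-0.11 ± 0.04) and D218Y (-0.55 ± 0.04).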

How the data were processed

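The deposited matrix holds log2 values. The submitters' processing notes name Partek 6.6 and RMA, a method that subtracts background, gives arrays a common distribution and combines the probes of a set; the sources used here give no settings. The log2 values were used unchanged, without a filter on low values. Group and replicate came from the array titles. Of 28350 probe sets 21780 had 1 gene symbol, and the probe set with the highest mean was kept per gene, giving 19933 genes. Precision is limited by the number of arrays (3 per line).

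One mean per line over all 15 arrays was fitted with limma 3.58.1 in R 4.3.3 (lmFit, eBayes without trend). All 10 pairs of lines were contrasts, with Benjamini-Hochberg adjustment over all genes within each and two-sided calls at an adjusted p under 0.05. "Rose" and "fell" are used for calls alone. Intervals are 95% intervals of the moderated fit, unadjusted. The fit was first tested on simulated data. The p-values reflect the spread among these cultures alone.

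The members and lists were chosen with earlier results of these data known, so their counts are descriptions. Named were all members, up to 4 genes per list with the largest called change against WT, and the 4 closest profiles to Atf4, Trib3 and Slc7a11. Placeholder symbols and small RNAs were passed over among those profiles. Genes without a probe set of 1 symbol were not used here. Alternatives were a further quantile or cyclic loess normalization, a filter that kept genes above the median intensity, the compared lines alone, eBayes with trend and robust, the replicate number as a block, averaging over probe sets of 1 gene, an adjusted p under 0.01 and each array left out.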

Additional observations from a re-analysis of the deposited data

How the results depend on the processing

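No member's called difference changed sign under any alternative. Of 1390 member differences recomputed, 1306 kept their side of the threshold, 58 lost a call and 26 gained one. Of 556 against WT, 10 lost and 9 gained a call. Of 140 recomputed counts of called members 137 stayed within 1.5 times the main count. The exceptions were in D218G against R216Q, where 7 members were called: 4 at an adjusted p under 0.01, 4 when those lines alone were fitted, and 4 to 6 with single arrays left out. The cause was not tested. Over all genes 2 of 140 counts moved further, both when the compared lines alone were fitted: 2106 genes in D218G against WT (3601 in all 15 arrays) and 1541 in D218G against R216Q (2668).

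Replicates that share a number did not deviate together as a rule. Of 30 such pairs 3 correlated above 0.1 (median -0.024, against 0.012 for other numbers), and 2 of 15 arrays correlated best with an array of their own number. Single pairs ran from -0.505 to 0.407, however. WT and R216Q deviated together in replicates 2 (0.407) and 3 (0.327), as did D218G and D218Y in replicate 2 (0.389). D218G deviated against WT and R216Q in replicates 2 and 3 (-0.505 to -0.482). Deviations of arrays in different lines were thus not all unrelated, and the reason was not tested. With the replicate number as a block 4 of 72 member calls were lost, and the counts were 5 in D218G against R216Q (7 without the block), 5 in D218G against R216W (6) and 7 in D218Y against D218G (8). The other 7 counts were the same. Among the members the SE of a difference was widest for Slc7a11 (0.10).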
